A study of Mus musculus with 2 samples.

Results

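The immunoglobulin constant genes were compared between sorted aortic macrophages of ApoE-/- mice with Phlegm-Dampness Retention (PDR) syndrome and with Spleen and Kidney Yang Deficiency (SKYD) syndrome. These syndromes are categories of traditional Chinese medicine that were modelled in mice. The 10 genes were taken by name from the 54532 genes of the table, and 7 of them encode heavy chain constant regions (Ighm, Ighd, Ighg1, Ighg2b, Ighg2c, Ighg3 and Igha) and 3 encode light chain constant regions (Igkc, Iglc1 and Iglc2). All 10 had a mean FPKM of at least 1, where FPKM is the number of fragments per kilobase of gene length, scaled to the size of the library. By annotated biotype the table holds 13 immunoglobulin constant genes, and the other 3 are Ighe, Iglc3 and Iglc4.

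Both groups carried the ApoE deletion on the C57BL/6J background, and the labels give an age of 6 weeks for both. High-fat feeding lasted 4 weeks in the PDR group. In the SKYD group propylthiouracil, which blocks thyroid hormone synthesis, was given by gavage for 4 weeks at 10 mg/kg per day, and high-fat feeding followed for 2 weeks. Syndrome, drug and diet time therefore cannot be told apart in these samples. Nor can age at sampling, which may differ because the protocols were of unequal length. Cells of the aorta were sorted on F4/80 and CD11b, and the cells of 5 mice were pooled into 1 library per group. There was no replicate, so no p-value is given and every difference is between single pools. The recovered reads on genes were 23086889 for PDR and 25427863 for SKYD. Intervals are exact 95% limits (Clopper-Pearson) and cover counting error alone, so the spread between mice is not in them. As a separate limit, a count of 0 was read as allowing up to 3 reads, which is 1.3e-05% of PDR reads and 1.18e-05% of SKYD reads.

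An antibody is built from heavy and light chains, each with a variable region that binds antigen and a constant region that sets the class, or isotype. A B cell first makes IgM, and with it IgD by splicing of the same primary transcript. Class switch recombination later cuts out the DNA between the variable exons and a downstream constant gene, so that the cell makes IgG, IgE or IgA with the same variable region. Plasma cells carry very large amounts of these transcripts. Macrophages bind antibodies through Fc receptors.

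The label of the cells was checked against markers. All 12 macrophage markers were expressed in the pair of libraries, and the F4/80 gene Adgre1 had an FPKM of 87.3 in PDR and 93.3 in SKYD. The CD11b gene Itgam had an FPKM of 8.84 in PDR and 14.4 in SKYD, 1.62-fold higher in SKYD. Transcripts of B cells were present in both libraries as well, with Cd79a, a signalling chain of the B cell receptor, at an FPKM of 582 in PDR and 178 in SKYD. The reads come from bulk RNA, where fewer cells of a type and less RNA per cell cannot be told apart.

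Immunoglobulin constant RNA was abundant in both libraries and higher in PDR. The 10 genes took 6.17% of reads in PDR (95% CI 6.16 to 6.18) and 2.32% in SKYD (95% CI 2.31 to 2.32). Igkc had the highest FPKM of all genes in PDR and rank 2 in SKYD. Ighg2b, the constant gene of IgG2b, had rank 7 in PDR and rank 141 in SKYD.

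Differences were taken as log2(FPKM + 1) in PDR minus that in SKYD, a scale that understates the difference of genes with low values, while folds are ratios of FPKM without the added 1. On the log2 scale 7 of these 10 passed 2-fold towards PDR, against 7.38% of the 10399 tested genes. Towards SKYD 0 of the 10 did so, against 6.91% of the tested genes. The 3 genes between these limits were Ighm, Igha and Iglc2. The median difference of the 10 was 2.08, and that of all tested genes was -0.0035. At a 4-fold limit 5 of the 10 were higher in PDR, against 194 of the 10399 tested genes, or 1.87%.

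**Figure D1:**
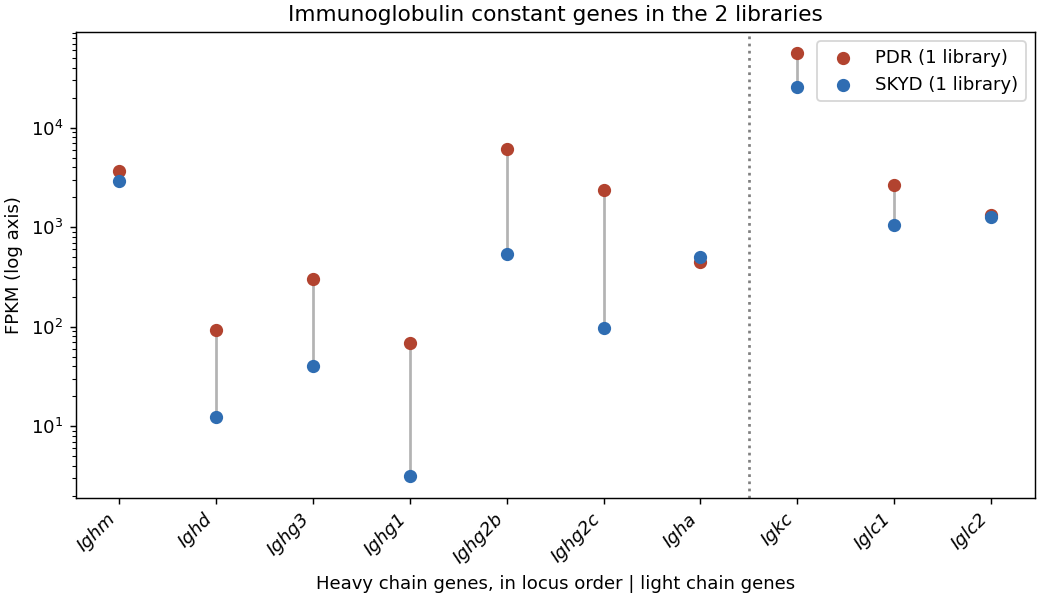
FPKM of the 10 constant genes on a log axis, with the heavy chain genes in the order of the locus to the left of the dotted line and the light chain genes to the right. Each point is 1 library, PDR in red and SKYD in blue, joined by a grey line. The pairs for Ighm, Igha and Iglc2 lie close together, while the 4 IgG genes and Ighd are set far apart.

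The heavy chain genes lie in a row on the minus strand of chromosome 12, in the order Ighm, Ighd, Ighg3, Ighg1, Ighg2b, Ighg2c, Ighe and Igha along the direction of transcription. Coordinates are those of the deposited table, which match GRCm38. Ighm (ENSMUSG00000076617, chr12:113418558-113422730) encodes the constant region of IgM, the class made before any switch. Its FPKM was 3689 in PDR and 2917 in SKYD, a ratio of 1.26 (95% CI 1.26 to 1.27). The interval lies above 1, but the ratio is small beside those of the IgG genes and the 2-fold limit was not reached.

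Ighd (ENSMUSG00000104213, chr12:113406604-113416324) begins 6.41 kb downstream of the start of Ighm and encodes the constant region of IgD, which naive mature B cells carry on their surface together with IgM. Its FPKM was 93.7 in PDR and 12.5 in SKYD, which is 7.49-fold higher in PDR (95% CI 6.87 to 8.18). The genes Ighm and Ighd share a promoter and a primary transcript, yet their differences were unlike. The FPKM of Ighm was 39.4 times that of Ighd in PDR and 233 times in SKYD. With reads divided by the length of the secreted transcript in place of the gene length, these ratios were 20.98 and 124.

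Ighg3 (ENSMUSG00000076615, chr12:113356224-113361232) is the first IgG gene of the locus and encodes IgG3, a class made largely in responses to polysaccharides. Its FPKM was 301 in PDR and 40.3 in SKYD, a ratio of 7.46 (95% CI 7.15 to 7.78). Ighg1 (ENSMUSG00000076614, chr12:113325240-113330523) encodes IgG1, to which interleukin 4 directs switching in the mouse. It had the lowest FPKM of the 10 genes in both libraries, 69.1 in PDR from 4208 reads and 3.13 in SKYD from 203 reads. The ratio was 22.1 (95% CI 19.2 to 25.5). IgG1 transcripts were thus a minor part of the IgG in these pools, although their ratio was among the highest.

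Ighg2b (ENSMUSG00000076613, chr12:113302965-113307933) encodes IgG2b and was the most abundant IgG gene in both libraries by FPKM. It had an FPKM of 6154 in PDR and 542 in SKYD, a ratio of 11.3 (95% CI 11.2 to 11.5). In PDR its level per length was above that of Ighm, and in SKYD it was below. Ighg2c (ENSMUSG00000076612, chr12:113285325-113288932) encodes IgG2c, which C57BL/6 mice make in place of the IgG2a of other strains and to which interferon gamma directs switching. Its FPKM was 2390.4 in PDR and 97.1 in SKYD. This ratio of 24.6 (95% CI 23.8 to 25.5) was the highest of the 10 genes, with an interval that overlaps that of Ighg1.

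The IgG genes are closely related, and reads could in principle pass from one to another. Aligned over their coding bases, Ighg2b and Ighg2c were 86.3% identical with 137 differing bases, and the least alike pair, Ighg1 and Ighg3, was 76.1% identical. No window of 100 bases in the annotated transcripts of any of the 10 genes occurred in a transcript of another gene. At 64 bases, 2.03% of windows of Ighg2b, 2.22% of Ighg2c and 1.02% of Ighg3 did so. These are exact matches, and alignment with mismatches was not tested. The hinge, a short exon between the first and second constant domains, is where the 4 genes differ most plainly in length. Its cysteines form the disulphide bonds that join a pair of heavy chains. The hinge exons are given from GENCODE M21 on GRCm38, minus strand of chromosome 12, read 5′ to 3′ along the transcript, with in-frame cysteine codons in capitals. Each is coding exon 2 of its gene. Ighg3 lies at chr12:113360529-113360576, Ighg1 at chr12:113329844-113329882, Ighg2b at chr12:113307261-113307326 and Ighg2c at chr12:113288263-113288325.
Ighg3: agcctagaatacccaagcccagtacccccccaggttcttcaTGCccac
Ighg1: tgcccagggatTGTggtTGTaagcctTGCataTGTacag
Ighg2b: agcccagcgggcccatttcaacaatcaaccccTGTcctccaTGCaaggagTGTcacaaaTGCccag
Ighg2c: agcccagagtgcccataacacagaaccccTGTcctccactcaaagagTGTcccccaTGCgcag
The exon has 48 bases and 1 cysteine codon in Ighg3, 39 bases and 4 in Ighg1, 66 bases and 4 in Ighg2b, and 63 bases and 3 in Ighg2c. The table counts reads per gene, so reads over these exons were not measured on their own.

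Igha (ENSMUSG00000095079, chr12:113254830-113260236) is the last gene of the locus and encodes IgA, the class secreted at mucosal surfaces. It was the single one of the 10 genes with a lower level in PDR. Its FPKM was 443 in PDR and 507 in SKYD, which is 1.14-fold higher in SKYD (95% CI 1.13 to 1.16). On the log2 scale the difference was -0.19 (95% CI -0.22 to -0.17). Leaving the immunoglobulin and T cell receptor genes out of the library size brought it to -0.07, and the same scaling moved the median of all genes to 0.10. Relative to that median, Igha was at -0.17 and Ighm at 0.36. Ighe, the IgE gene between Ighg2c and Igha, had 6 reads in PDR and 4 in SKYD, and a difference was not detectable at this depth.

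The differences did not follow the order of the genes along the chromosome. From the start of Ighm, the distances to Ighg3, Ighg1, Ighg2b, Ighg2c and Igha were 61.5, 92.2, 114.8, 133.8 and 162.5 kb. On the log2 scale the differences at Ighg3, Ighg1, Ighg2b and Ighg2c were 2.87, 4.08, 3.50 and 4.61. At Ighd, just downstream of Ighm, the difference was 2.81. The genes at both ends of the locus, Ighm at 0.34 and Igha at -0.19, had the smallest differences of the 7 heavy chain genes compared, and each of the other 5 was higher in PDR by more than 2-fold. Ighe, which lies between them, held too few reads for this comparison.

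**Figure D2:**
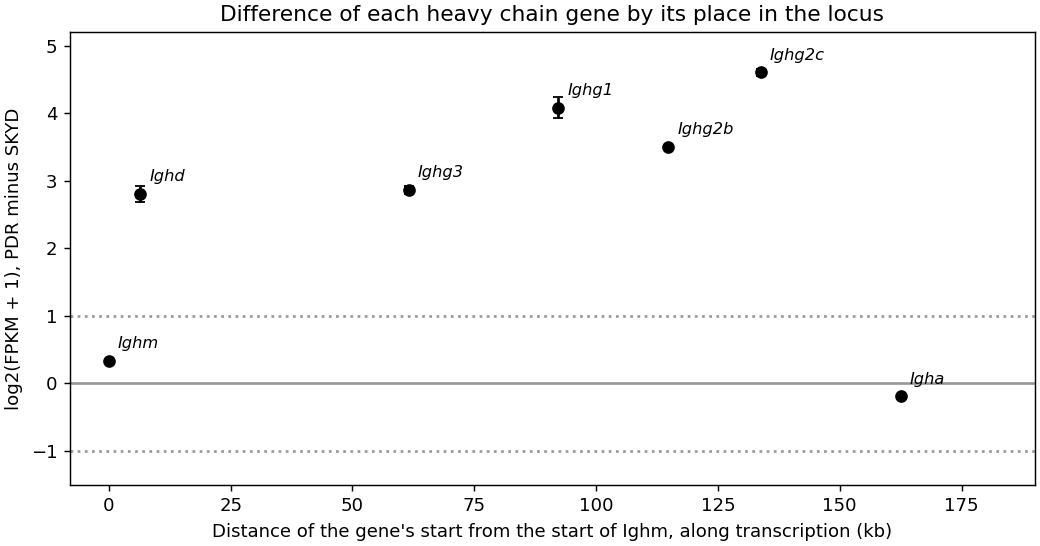
Difference of each heavy chain gene in log2(FPKM + 1), PDR minus SKYD, against the distance of its start from the start of Ighm in kb along transcription. Bars are 95% counting intervals from 1 library per group, and dotted lines mark 2-fold. Ighm at 0.34 and Igha at -0.19 lie between the dotted lines at the ends of the locus, and Ighd and the 4 IgG genes lie between 2.81 and 4.61.

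The makeup of the heavy chain RNA was therefore unlike in the pools. Of the summed FPKM of the 7 heavy chain genes, Ighm made up 28.1% in PDR and 70.8% in SKYD. The switched classes, IgG and IgA together, made up 71.2% in PDR and 28.9% in SKYD. IgM was the main class in the SKYD library and IgG in the PDR library.

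Counted as reads, the switched share was 75.3% in PDR (95% CI 75.2 to 75.4) and 35.5% in SKYD (95% CI 35.3 to 35.7). IgG alone took 67.8% of heavy chain FPKM in PDR and 16.6% in SKYD. For IgA the share was lower in PDR, 3.37% against 12.3% in SKYD, although the level of Igha itself differed little. The IgG share was higher in PDR on both scales.

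Ighg2b took 46.8% of heavy chain FPKM in PDR and 13.2% in SKYD. Ighg2c took 18.2% and 2.36%. The share of Ighg2c depends on the length used, since the table gives 1326 bases for Ighg2c and 2678 for Ighg2b. As a share of reads Ighg2c was 11.0% in PDR and 1.50% in SKYD, and per length of the secreted transcript 11.7% and 1.79%. On that last scale Igha made up 19.0% in SKYD and Ighg2b 20.2%.

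Within IgG, Ighg2b was the main gene in both libraries, with 69.0% of the summed FPKM of the 4 IgG genes in PDR and 79.4% in SKYD. Summed IgG was 8914 FPKM in PDR and 683 in SKYD, a ratio of 13.1. The sum of all 7 heavy chain genes was 3.19-fold higher in PDR. The total thus differed far less than its IgG part, since Ighm, the main gene in SKYD, had a ratio of 1.26.

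**Figure D3:**
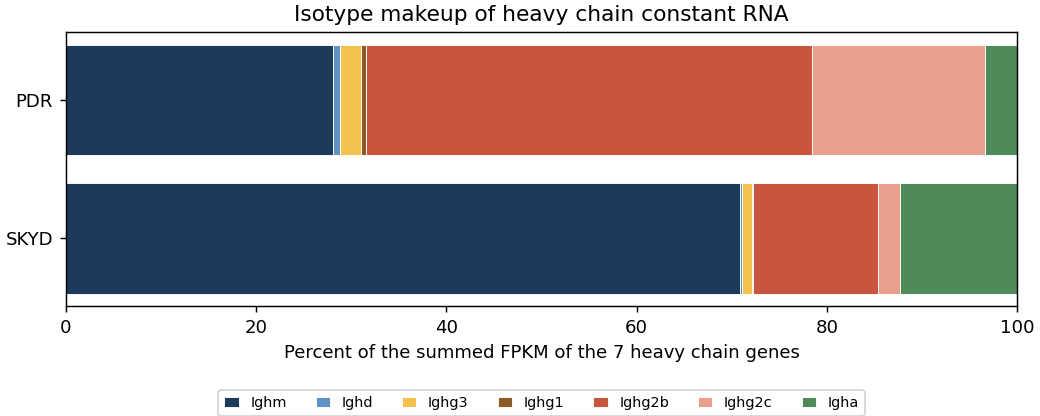
Share of each of the 7 heavy chain constant genes in their summed FPKM, in percent, for PDR and SKYD (1 library each). Ighm in dark blue fills 28.1% of the PDR bar and 70.8% of the SKYD bar, while Ighg2b in red fills 46.8% and 13.2%.

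Light chains are of the kappa or the lambda type, and most mouse antibodies carry kappa. Igkc (ENSMUSG00000076609, chr6:70726435-70726966, plus strand) is the single kappa constant gene. Its FPKM was 55958 in PDR and 25889 in SKYD, a ratio of 2.16 (95% CI 2.15 to 2.17), and it took 3.03% of all reads in PDR and 1.35% in SKYD. The kappa share of the 3 light chain genes was 93.4% of FPKM in PDR and 91.8% in SKYD. Kappa was the main light chain in both pools, with shares far closer to each other than those of the heavy chain classes. All 532 bases of Igkc also lie within the span of Gm30211, a noncoding gene on the same strand with 610 reads in PDR and 140 in SKYD. How reads that fit both genes were counted is not given in the sources used here.

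Lambda constant genes lie on the minus strand of chromosome 16. Iglc1 (ENSMUSG00000105906, chr16:19061618-19062071) had an FPKM of 2660.0 in PDR and 1050 in SKYD, a ratio of 2.53 (95% CI 2.48 to 2.59). Iglc2 (ENSMUSG00000076937, chr16:19198396-19200351) had an FPKM of 1315 in PDR and 1258 in SKYD, a ratio of 1.04 (95% CI 1.02 to 1.07). Lambda 1 was thus higher in PDR while lambda 2 was nearly level. The FPKM of Iglc1 was 2.02 times that of Iglc2 in PDR and 0.834 times in SKYD, so that the order of the pair was reversed. Iglc3 (ENSMUSG00000105547, chr16:19065230-19065681), the gene of lambda 3, had an FPKM of 1259 in PDR and 350.3 in SKYD, which is 3.59-fold higher in PDR (95% CI 3.47 to 3.72). Iglc4 had 45 reads in PDR and 25 in SKYD. Iglc3 and Iglc4 were the 2 expressed genes among the other constant genes, and 1 passed 2-fold towards PDR and 0 towards SKYD, with a median of 1.30.

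Iglc2 and Iglc3 are near copies, with 11 differing bases and 96.5% identity over their coding bases, while Iglc1 and Iglc2 were 74.8% identical. At 100 bases they shared no window, and at 64 bases 2.92% of windows of Iglc2 occurred in Iglc3. Of windows of Iglc3, 12.6% occurred in transcripts of another gene, 4.11% in Iglc2 and 8.48% in the antisense gene 2010309G21Rik. The stretches below are the first 100 bases of the coding exon from the second codon on, from GENCODE M21 on GRCm38, minus strand, 5′ to 3′, with capitals at the 25 positions where the 3 genes are not all alike. They lie at chr16:19061970-19062069 in Iglc1, chr16:19198751-19198850 in Iglc2 and chr16:19065580-19065679 in Iglc3.
Iglc1: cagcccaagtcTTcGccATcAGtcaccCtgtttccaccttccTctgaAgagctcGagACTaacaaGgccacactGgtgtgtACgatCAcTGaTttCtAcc
Iglc2: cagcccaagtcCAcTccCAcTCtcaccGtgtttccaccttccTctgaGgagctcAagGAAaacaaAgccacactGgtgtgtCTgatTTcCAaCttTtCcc
Iglc3: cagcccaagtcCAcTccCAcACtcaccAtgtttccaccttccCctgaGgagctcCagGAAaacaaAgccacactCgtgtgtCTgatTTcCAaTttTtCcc
Iglc1 differed from each of the other genes at 23 of these positions, and Iglc2 from Iglc3 at 6. A read from Iglc2 and one from Iglc3 can therefore be separated by few bases, whereas Iglc1 is distinct. How many reads passed between Iglc2 and Iglc3 was not tested. Iglc1, Iglc3 and the variable gene Iglv1 also lie across from 2010309G21Rik, which had 171 reads in PDR and 71 in SKYD.

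The lambda variable genes also differed among themselves. Iglv1, which joins mainly to the Iglc1 and Iglc3 clusters, had an FPKM of 5051 in PDR and 1045 in SKYD, a ratio of 4.83 (95% CI 4.73 to 4.94). Iglv3, which lies beside Iglv2 upstream of Iglc2, had an FPKM of 286 in PDR and 66.1 in SKYD, a ratio of 4.33. Iglv2, which joins mainly to the Iglc2 cluster, had an FPKM of 410 in PDR and 1246 in SKYD, 3.04-fold higher in SKYD (95% CI 2.92 to 3.16). Iglv2 was thus higher in the pool in which Iglv1 and its own neighbour Iglv3 were lower. Iglv3 took 4.88% of lambda variable reads in PDR and 2.83% in SKYD, and Iglv1 took 88.4% and 45.9%. Of lambda constant reads, Iglc1 took 46.8% in PDR and 33.9% in SKYD, and Iglc3 took 22.0% and 11.3%. The shares of Iglv1, Iglc1 and Iglc3 were thus all higher in PDR.

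Of lambda variable reads, Iglv2 took 6.72% in PDR (95% CI 6.51 to 6.94) and 51.2% in SKYD (95% CI 50.6 to 51.9). Of lambda constant reads, Iglc2 took 31.1% in PDR (95% CI 30.8 to 31.5) and 54.8% in SKYD (95% CI 54.2 to 55.3). The share of Iglv2 and that of Iglc2 were close in SKYD and far apart in PDR. There were 18.7 reads on Iglv2 for every 100 on Iglc2 in PDR and 59.2 in SKYD. With Iglv3 added to Iglv2 these were 32.2 and 62.5. For Iglv1 over Iglc1 and Iglc3 the ratio went the other way, with 111 reads for every 100 in PDR and 64.4 in SKYD.

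Rearranged transcripts join a constant gene to a variable segment, so the variable genes give a further reading of the same RNA. Reads on 185 heavy chain variable genes summed to 99400 in PDR and 25397 in SKYD, a ratio of 4.16 (95% CI 4.11 to 4.22) after library size, and reads on the heavy chain constant genes gave 3.37. For the 160 kappa variable genes the ratio was 2.48, and for Igkc it was 2.16. For the 3 lambda variable genes it was 2.51, and for the lambda constant genes it was 1.84. At each locus the variable and constant genes were both higher in PDR, the variable genes by a larger ratio. There were 14.6 reads on heavy chain variable genes for every 100 on constant genes in PDR and 11.9 in SKYD. The joining segments, the short pieces between variable and constant exons, held 65 reads in PDR and 14 in SKYD for the heavy chain, 382 and 347 for kappa, and 688 and 188 for lambda.

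Markers of B cells were higher in PDR along with the constant genes. Of 11 expressed mature B cell markers, 10 passed 2-fold towards PDR and 0 towards SKYD, with a median difference of 2.17. The most abundant were Cd79b, Cd79a and Ms4a1, and no marker of the list was at 0 in either library. The list took 0.417% of reads in PDR and 0.0799% in SKYD. Ms4a1, which encodes CD20, had an FPKM of 196 in PDR and 22.5 in SKYD, a ratio of 8.71 (95% CI 8.41 to 9.03), the largest difference on the log2 scale among the expressed genes of the list. Cd79b, the partner of Cd79a, had an FPKM of 802 in PDR and 168 in SKYD. The smallest difference was that of Spib, a transcription factor, at 0.94. The part of B cell content in the levels of the constant genes was not tested.

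Set against Cd79a, the sum of the heavy chain genes was nearly level, at 22.6 times the FPKM of Cd79a in PDR and 23.1 times in SKYD. Against Cd79b the same sum was 16.4 times in PDR and 24.5 times in SKYD. The classes were not level on this scale. Ighm was 6.34 times Cd79a in PDR and 16.4 times in SKYD, while summed IgG was 15.3 times in PDR and 3.83 times in SKYD. Per unit of Cd79a RNA, IgM was thus lower and IgG higher in PDR.

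Plasma cell markers differed in size but not in direction, with all 14 expressed markers above 0 on the log2 scale. Of 14 expressed, 8 passed 2-fold towards PDR and 0 towards SKYD, with a median of 1.05, and the list took 0.949% of reads in PDR and 0.752% in SKYD. Its most abundant gene Jchain, which encodes the chain that joins IgM and IgA into polymers, had an FPKM of 2483 in PDR and 2403 in SKYD, a difference of 0.05 on the log2 scale. Xbp1, a transcription factor of secretory cells, differed by 0.24. Jchain and Xbp1 were nearly level, as Ighm and Igha were.

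Mzb1, a chaperone of the endoplasmic reticulum in B and plasma cells, had an FPKM of 612 in PDR and 116 in SKYD, a ratio of 5.28 (95% CI 5.06 to 5.51). Sdc1, which encodes the plasma cell surface protein CD138, had an FPKM of 9.96 in PDR and 4.65 in SKYD. The list thus held genes with several-fold differences beside its most abundant gene with almost none. Against Jchain, Ighm was 1.49 times in PDR and 1.21 times in SKYD, and Igha 0.178 and 0.211 times. Summed IgG was 3.59 times Jchain in PDR and 0.284 times in SKYD. The classes that carry the J chain thus had ratios to it that differed little between the pools beside that of IgG.

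Genes of the germinal centre and of class switching came next. Of 8 expressed genes, 4 passed 2-fold towards PDR and 0 towards SKYD, with a median of 0.97, and the list took 0.0358% of reads in PDR and 0.0203% in SKYD. Fas, a death receptor found on many cell types, was the most abundant of the list and differed by 0.05. Apex1, a repair enzyme expressed in most cells, differed by 0.31. Fas and Apex1 were thus close to level, unlike the 4 genes past 2-fold.

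A further list held cytokines, receptors and factors that direct switching. Of 17 expressed genes, 5 passed 2-fold towards PDR and 1 towards SKYD, with a median of 0.53, and the list took 0.123% of reads in PDR and 0.0955% in SKYD. Tnfrsf13c, the receptor for the B cell survival factor BAFF, had an FPKM of 80.6 in PDR and 5.22 in SKYD, a ratio of 15.5 (95% CI 13.6 to 17.6). Tgfb1, whose product directs switching to IgA, was the 1 gene past 2-fold towards SKYD, with an FPKM of 0.608 in PDR and 3.02 in SKYD. The interferon gamma receptor chains Ifngr1 and Ifngr2 differed by -0.55 and 0.60. Most genes of this list are also expressed by cells other than B cells.

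Other genes of that list were named after their values were seen. Ifng, the gene of interferon gamma, had 39 reads in PDR and 6 in SKYD. Tbx21, a transcription factor that acts with interferon gamma in switching to IgG2c, had 372 reads in PDR and 14 in SKYD. Il4, the gene of interleukin 4, had 1 read in PDR and 49 in SKYD. Ifng and Il4 had a mean FPKM below 1 and were not among the tested genes. Il5, Il13 and Il21 were at 0 reads in at least 1 library.

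Genes listed for B cells at other stages differed in both directions. Of 6 expressed early B cell genes, 1 passed 2-fold towards PDR and 4 towards SKYD, with a median of -1.71 (-1.70 with the 2 genes at 0 reads in PDR, Rag1 and Rag2, set to 3 reads), and they took 0.00486% of reads in PDR and 0.0590% in SKYD. The surrogate light chain genes Igll1 and Vpreb1, which mark precursor B cells, held 0 and 2 reads in PDR and 15 and 24 in SKYD. Both had a mean FPKM below 1, so neither enters this median. Dntt, which adds bases at the joints of antigen receptor genes, counted 39 reads in PDR and 10953 in SKYD. Rag2, part of the recombinase, was at 0 reads in PDR and at 2262 in SKYD. Dntt, Rag1 and Rag2 were among the 4 genes past 2-fold towards SKYD. They are also expressed by immature T cells, and the part of such cells in these values was not tested. Vpreb3, which is also expressed in mature B cells, had 665 reads in PDR and 64 in SKYD.

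Of 5 expressed genes of the B-1 cell list, 2 passed 2-fold towards PDR and 1 towards SKYD, with a median of -0.59, and the list took 0.102% of reads in PDR and 0.149% in SKYD. Its most abundant genes Tppp3 and Cd9 are not particular to B cells, and they differed by -0.59 and -0.87. Zbtb32 was the gene with the largest difference towards PDR at 1.86, and Cd5, which T cells also express, the one towards SKYD at -1.54. Of 13 genes of B cell receptor signalling, 4 passed 2-fold towards PDR and 0 towards SKYD, with a median of 0.76, and the list took 0.329% of reads in PDR and 0.149% in SKYD. The list shares 2 genes, Cd79a and Cd79b, with the mature B cell list. Cd79b at 2.25 had its largest difference, and Cd81, a membrane protein of many cell types, its lowest at -0.50.

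**Figure D4:**
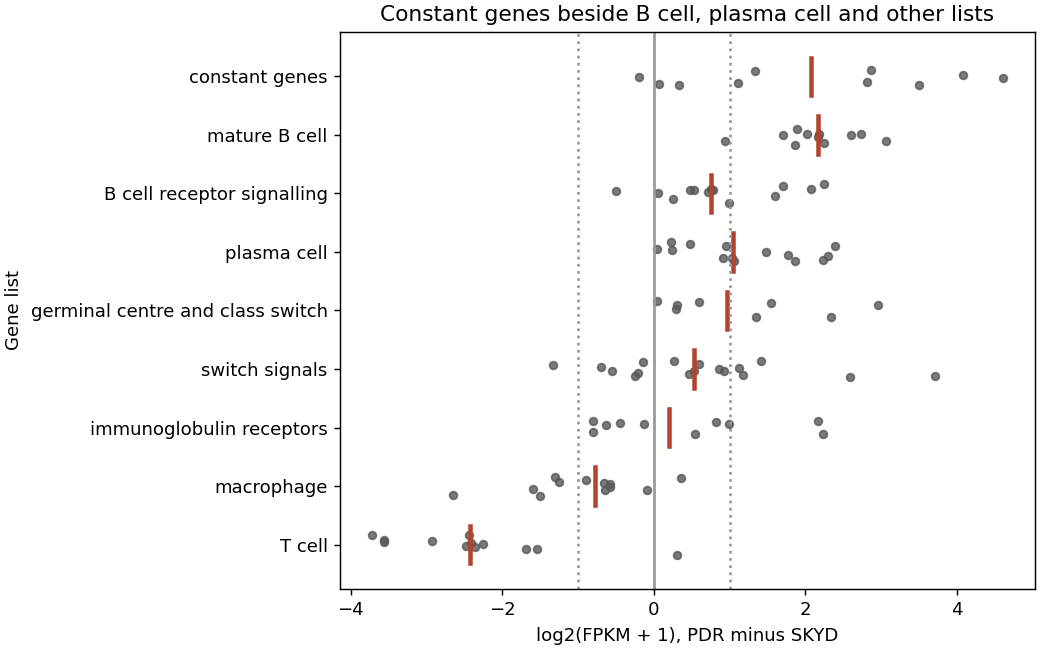
Difference of each expressed gene in log2(FPKM + 1), PDR minus SKYD, for the 10 constant genes and 8 of the gene lists. Grey points are genes, red bars are medians, and dotted lines mark 2-fold. The medians of the constant genes at 2.08 and of the mature B cell markers at 2.17 lie to the right, and that of the T cell markers at -2.42 lies to the left.

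Receptors that bind the constant regions were not shifted as a group. Of 10 expressed, 2 passed 2-fold towards PDR and 0 towards SKYD, with a median of 0.21, and they took 0.424% of reads in PDR and 0.496% in SKYD. Fcmr, the IgM receptor found on B cells, had an FPKM of 91.4 in PDR and 18.6 in SKYD, a ratio of 4.90 (95% CI 4.54 to 5.29). Fcer1g, the signalling chain shared by the activating Fc receptors of myeloid cells, had an FPKM of 1471 in PDR and 2006 in SKYD. Fcgr3 had an FPKM of 565 in PDR and 990.0 in SKYD. Fcgr4, a receptor for IgG2b and IgG2c, had an FPKM of 775 in PDR and 436 in SKYD. The activating receptors thus differed in both directions, each by less than 2-fold.

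Other cell types differed between the pools as well. Of 12 macrophage markers, 0 passed 2-fold towards PDR and 5 towards SKYD, with a median of -0.78, and they took 3.36% of reads in PDR and 6.27% in SKYD. Lyz2, the lysozyme of myeloid cells and the most abundant of them, differed by -0.90, and its list mates C1qb and C1qc, parts of complement, by -1.25 and -1.59. Cd14 was the marker furthest towards SKYD at -2.65, and Csf1r the one furthest towards PDR at 0.35. Of the sorting marker genes, Adgre1 was at -0.10 and Itgam at -0.64.

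Of 12 T cell markers, 0 passed 2-fold towards PDR and 11 towards SKYD, with a median of -2.42, and they took 0.108% of reads in PDR and 0.572% in SKYD. The receptor genes Trbc2 and Trbc1 and the coreceptor gene Cd8b1 were the most abundant, at -2.93, -3.56 and -3.72, while Cd2 was at 0.30. B and T cell markers thus differed in opposite directions.

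Of 10 neutrophil markers, 4 passed 2-fold towards PDR and 0 towards SKYD, with a median of 0.93, and they took 0.339% of reads in PDR and 0.251% in SKYD. S100a9, S100a8 and Ngp were the most abundant, at 0.40, 0.37 and 0.998, with Elane at 2.36 and Mmp8 at -0.56 the furthest apart. Of 7 expressed erythroid markers, 1 passed 2-fold towards PDR and 0 towards SKYD, with a median of -0.21, and they took 1.72% of reads in PDR and 2.21% in SKYD. Hba-a1, Hbb-bs and Hbb-bt, the haemoglobin genes, were at -0.53, -0.36 and -0.21, with Hba-a2 lowest at -0.59 and Car2 highest at 1.26. The sort on F4/80 and CD11b selects for myeloid surface proteins, and the part of other cells in the constant gene levels was not tested.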

How the data were processed

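RNA of sorted aortic macrophages was sequenced as 1 pool of 5 mice for PDR and 1 for SKYD, with groups taken from the labels. Per the labels, TopHat2 2.0.9, Bowtie2 2.0.6, HTSeq 0.6.1 and DESeq 3.18.1 were used. The authors deposited FPKM for 54532 genes. The labels name mm9, but start and end of 98.3% of the 54409 genes shared with GENCODE M21, and of all 10 constant genes, were those of GRCm38. Strandedness is not given in the sources used here.

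Reads were recovered from the steps in FPKM times gene length, and were whole within 0.01 read for 100% of the 17738 genes above 0 in PDR and the 20499 in SKYD. They summed to 23086889 and 25427863. The size behind FPKM was 1.02 times this sum in PDR and 0.983 times in SKYD. Comparison was made as log2(FPKM + 1) where the mean FPKM was 1 or more, and genes past 2-fold were counted. No test across genes was run, since 1 library per group leaves no spread, and reads served for shares and exact 95% intervals. PCR copies are not independent molecules.

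The constant genes and the 13 gene lists were chosen with earlier results of these data known. The lists are other constant genes, mature B cell, B-1 cell, plasma cell, germinal centre and class switch, early B cell, B cell receptor signalling, switch signals, immunoglobulin receptors, macrophage, T cell, neutrophil and erythroid. Variable and joining segments were summed by locus. Named by rule were all constant genes, Iglv1, Iglv2, Iglv3, Jchain, Cd79a, Cd79b, Ms4a1, Mzb1, Xbp1, Sdc1, Igll1 and Vpreb1, and from each list the 3 genes highest in mean FPKM and the largest difference each way. Some genes that the rule names are not reported here. The choice of any other gene followed a look at its values. Ighg2a, Iglc5, Fam46c and Ahsp were not matched by name in the table.

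Alternatives were pseudocounts of 0.1 and 0.01, no filter, a minimum mean of 5 FPKM, TPM, centring on the median, antigen receptor genes left out of the library size, a 4-fold limit, shares of reads, all constant genes, and windows of 64 bases in place of 100. Reads per length of the secreted transcript were added after the data were seen. The steps were tested on simulated data. Software was matplotlib 3.10.9, Biopython 1.88, scipy 1.17.1, pandas 2.3.3, numpy 2.4.6 and Python 3.11.15.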

Additional observations from a re-analysis of the deposited data

How the results depend on the processing

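Under the 50 alternatives to the log2 differences of the 10 genes, 50 kept their sign and 0 were reversed. A change of pseudocount cannot reverse a sign, and the other alternatives rescaled whole libraries by small amounts. Only genes near level could have changed sign, so this count is not a test of robustness. At a mean FPKM of at least 5, 464 genes passed 2-fold towards PDR and 373 towards SKYD, since fewer genes were tested. With no filter the shares of genes past 2-fold were 3.94% towards PDR and 3.92% towards SKYD, and with a pseudocount of 0.01 they were 10.5% and 10.1%. With the filter at a mean FPKM of 1, 194 and 216 were past a 4-fold limit. Of the 10 genes, 7 passed 2-fold towards PDR under each alternative run for this count other than the 4-fold limit, which 5 passed. The switched share was 75.3% in PDR and 35.5% in SKYD as a share of reads, and 80.0% and 42.5% per length of the secreted transcript, an alternative chosen after seeing the data. The kappa share in PDR was 93.7% of reads, 91.4% with all constant genes and 92.7% per secreted length, and in SKYD it was 91.7%, 90.7% and 90.5%. These follow from the lengths and genes counted. With antigen receptor genes left out of the library size, 941 genes were higher in PDR and 645 in SKYD. Leaving out genes with under 50% of windows of their own removed none of the 10, and no library could be left out. Depth limits Ighe, Iglc4 and the cytokine genes, and the spread between mice was not measured.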
